A study of Mus musculus with 8 samples.

Results

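Gain of the long arm of human chromosome 17 is a frequent change in neuroblastoma, and the genes described here are mouse counterparts of genes in that gained region. They are Birc5, Nme1, Nme2, Ppm1d, Trim37, Tbx2, Brip1 and Phb, all of which lie on mouse chromosome 11, so a change in the copy number of that chromosome could touch all of them. These 8 genes were chosen by name, and the question was whether their levels moved together over the tumours. On the array 22180 genes had a value. The value of a gene was that of the probe set, among those annotated to its symbol only, that had the highest mean over the tumours. By this rule 6 of the 8 genes had a value, each from 1 probe set. Nme2 and Phb had none, because their probe sets carried a further symbol as well (3 probe sets for Nme2, among them 1 shared with Nme1, and 1 for Phb), and they are not analysed by level here.

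The data were 8 arrays, each of the RNA of 1 primary tumour that had grown under the skin of a mouse. The tumours came from neural crest cells, the embryonic cells that give rise to sympathetic neurons, glia and pigment cells, which had been infected to carry N-Myc, the transcription factor amplified in high-risk neuroblastoma. The infected cells were a mixture of p53+/- and p53-/- cells, so every tumour came from cells with a p53 defect of one degree, the other or both. Which of these genotypes each tumour held is not given in the labels. About 10000 cells were injected 48 hours after infection into nude mice, which lack mature T cells but keep macrophages and other innate immune cells, or into C57Bl/6 mice, and the tumours were removed after about 50 days. The host of each tumour is likewise not given. All 8 tumours formed 1 group with no control tissue. The labels do not say that they came from separate animals or cultures, and the p-values below then cover only the spread between these samples.

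The members have unlike tasks in the cell. Birc5 encodes survivin, which holds the chromosomal passenger complex on dividing chromosomes and belongs by sequence to the inhibitors of apoptosis. Brip1 is a helicase that works with Brca1 in the repair of crosslinked DNA, Ppm1d is the phosphatase Wip1 that switches off p53 and the DNA damage response, and Trim37 is a ubiquitin ligase that limits the assembly of centrosomes. Nme1 and Nme2 are nucleoside diphosphate kinases, Phb is prohibitin of the inner mitochondrial membrane, and Tbx2 is a T-box transcription factor, mostly a repressor. When a chromosome arm is gained, many of its genes are usually transcribed from an extra copy at once, while each keeps its own control by its promoter.

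The promoters were compared for short motifs that the members might share. RefSeq promoters of the GRCm38.p6 build, 250 bases before to 50 bases after a start, were matched for 7 of the 8 members with 9 starts, and Tbx2 had no entry. The sequences below show the E-box CACGTG, which is the core site of MYC proteins, in the members that hold it, and the T-box core GTGTGA in the 1 member that holds it. Capitals mark these motifs, each sequence runs 5′ to 3′ on the gene's strand, and the 250-base windows end just before the start.
Nme1, first start, chr11:93968273-93968522, minus strand: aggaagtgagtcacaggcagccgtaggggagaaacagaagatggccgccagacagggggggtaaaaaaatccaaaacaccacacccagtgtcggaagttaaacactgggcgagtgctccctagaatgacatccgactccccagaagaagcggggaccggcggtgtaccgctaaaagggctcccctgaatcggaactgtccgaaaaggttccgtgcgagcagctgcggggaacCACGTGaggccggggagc
Nme1, around the E-box before the second start, chr11:93968037-93968066, minus strand: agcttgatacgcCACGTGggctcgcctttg
Phb, chr11:95666707-95666956, plus strand: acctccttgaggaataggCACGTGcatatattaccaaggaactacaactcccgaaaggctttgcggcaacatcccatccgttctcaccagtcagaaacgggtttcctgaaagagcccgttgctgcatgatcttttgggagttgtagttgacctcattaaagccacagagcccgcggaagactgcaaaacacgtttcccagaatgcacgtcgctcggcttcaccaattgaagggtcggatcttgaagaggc
Brip1, chr11:86201194-86201443, minus strand: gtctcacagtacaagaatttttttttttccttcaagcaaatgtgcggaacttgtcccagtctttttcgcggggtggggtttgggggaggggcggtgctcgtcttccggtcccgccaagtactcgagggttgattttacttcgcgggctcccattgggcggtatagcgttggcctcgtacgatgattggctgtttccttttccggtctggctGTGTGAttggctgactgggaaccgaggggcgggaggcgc
Searched on both strands, CACGTG was present for 2 of the 7 matched members, Nme1 (before both of its starts) and Phb, and in 7.15% of all 32851 promoters of the same length. GTGTGA was found for Brip1 alone and in 14.5% of all promoters. The letters TTTGAA, searched as a form of the cell cycle homology region, were in none of the members' windows and in 17.9% of all promoters. CCAAT was present for 4 members (Brip1, Phb, Ppm1d and Trim37) and in 37.4% of all promoters, and GGGCGG, a GC box, for 5 members (Birc5, Brip1, Nme2, Ppm1d and Trim37) and in 35.7%. None of the 5 motifs was held by all 7 matched members. Members are counted by gene, with a match at any start, and the percentages by promoter. A member with more than 1 start thus had more chances of a match, and the 2 measures are not directly comparable. A match of letters is a description of the window and shows no binding.

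All 6 measured members were expressed. Probe sets of sensory receptor genes (olfactory, vomeronasal and bitter taste, 1440 in number), taken here as mostly silent, set the background: the 95th percentile of their values, between 5.45 and 5.66 by array on the log2 scale. Each of the 6 members lay above it on 8 of 8 arrays and passed limma's test of the mean level above background with a Benjamini-Hochberg adjusted p under 0.05, where 57.3% of all 22180 genes passed. Markers of the labelled tissue were present, since 6 of the 7 listed sympathetic neuroblast genes had a value and all 6 were detected, Th, which makes the precursor of dopamine, running from 8.59 in tumour 6 to 11.34 in tumour 8. Array medians were alike, from 5.63 to 5.75, and the arrays correlated with each other at r between 0.968 and 0.989 over all genes.

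Survivin was steady. The log2 level of Birc5 was 8.90 in tumour 1, 9.22 in tumour 2, 9.39 in tumour 3, 8.92 in tumour 4, 9.30 in tumour 5, 9.22 in tumour 6, 9.14 in tumour 7 and 9.12 in tumour 8. Tumours 1 and 4 were lowest and tumour 3 was highest, a range of 1.40-fold. The mean was 9.15 ± 0.17 (SD, n = 8), which lay 3.56 ± 0.08 (SE) above background on the log2 scale (limma, adjusted p = 4.03e-13). Its SD was small for the array, since 25.6% of detected genes had a smaller one, and it was close to the median SD of 0.16 of the receptor probe sets, which lie at background and give only a rough gauge of array noise for a brighter gene. By the same gauge, whose 99th percentile was 0.41, the SDs of Nme1, Ppm1d, Trim37 and Brip1 also lay within the receptor range. Each tumour had a single array, so a difference between single tumours has no error of its own.

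The kinase Nme1 was highest in tumour 5 and lowest in tumours 7 and 8. Its log2 level was 9.53 in tumour 1, 9.37 in tumour 2, 9.28 in tumour 3, 9.45 in tumour 4, 9.64 in tumour 5, 9.27 in tumour 6, 8.93 in tumour 7 and 8.85 in tumour 8. Tumours 7 and 8 stood below the other 6 tumours, and the whole range was 1.72-fold. The mean was 9.29 ± 0.28 (SD, n = 8), 3.70 above background (limma, adjusted p = 5.93e-13), and 65.0% of detected genes had a smaller SD.

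The phosphatase Ppm1d and the ligase Trim37 varied about equally but had different extremes. The log2 level of Ppm1d was 9.66 in tumour 1, 10.07 in tumour 2, 10.13 in tumour 3, 9.98 in tumour 4, 10.04 in tumour 5, 9.82 in tumour 6, 9.53 in tumour 7 and 9.74 in tumour 8. Its lowest tumours were 7 and 1 and its highest were 3 and 2, a range of 1.52-fold around a mean of 9.87 ± 0.22 (SD, n = 8; limma, adjusted p = 8.83e-14). The log2 level of Trim37 was 10.04 in tumour 1, 10.23 in tumour 2, 10.56 in tumour 3, 10.49 in tumour 4, 10.34 in tumour 5, 10.65 in tumour 6, 10.13 in tumour 7 and 10.21 in tumour 8. Trim37 was highest in tumours 6, 3 and 4 and lowest in tumours 1 and 7, with a range of 1.53-fold around a mean of 10.33 ± 0.22 (SD, n = 8; limma, adjusted p = 5.86e-14). Both SDs lay just under the median of the detected genes, 0.23.

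The helicase Brip1 lay nearest to background of the members with a narrow range. Its log2 level was 7.32 in tumour 1, 7.82 in tumour 2, 7.93 in tumour 3, 7.40 in tumour 4, 7.30 in tumour 5, 7.64 in tumour 6, 7.46 in tumour 7 and 7.65 in tumour 8. Tumours 2, 3, 6 and 8 lay above its mean of 7.57 ± 0.23 (SD, n = 8), which was 1.98 ± 0.10 (SE) above background (limma, adjusted p = 7.75e-10), and its range was 1.55-fold.

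Tbx2 was the member that varied. Its log2 level was 9.48 in tumour 1, 9.16 in tumour 2, 8.71 in tumour 3, 8.46 in tumour 4, 8.59 in tumour 5, 6.24 in tumour 6, 9.28 in tumour 7 and 9.11 in tumour 8. Tumour 6 stood alone, 2.22 below the next lowest tumour on the log2 scale, a gap of 4.66-fold, and only 0.70 above the background of its array. The mean over all tumours was 8.63 ± 1.03 (SD, n = 8; limma, adjusted p = 6.02e-06), and 98.9% of detected genes had a smaller SD. Without tumour 6 the mean was 8.97 ± 0.38 (SD, n = 7), and 85.4% of detected genes still had a smaller SD. As the tumours were measured whole, fewer cells of a type and less RNA per cell cannot be told apart here or below.

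**Figure D1:**
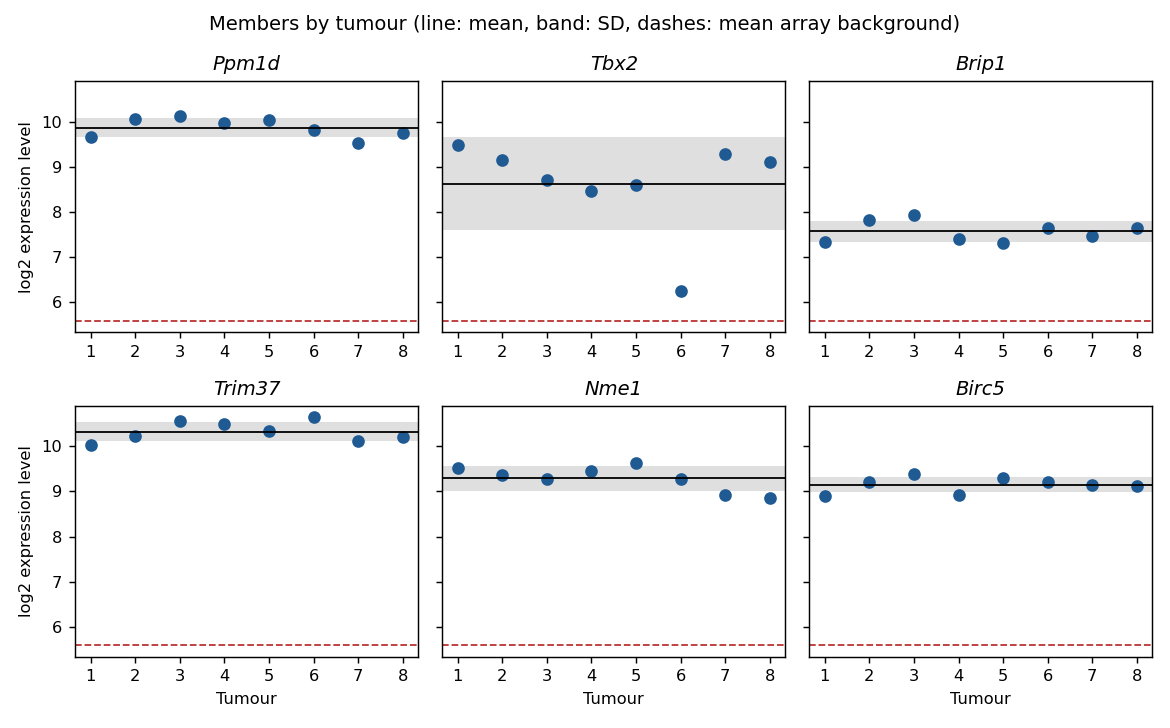
Log2 expression level of the 6 measured members in each of the 8 tumours, in the order of the genes on chromosome 11. Points are single arrays, the line is the mean, the grey band is the SD and the dashed line is the mean array background; Tbx2 in tumour 6, at 6.24, is the only point close to background.

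Over the 8 tumours the pairs of the 6 members had correlations of both signs. Over the 15 pairs, Pearson's r across the 8 tumours had a median of 0.16 and ran from -0.81 to 0.60, with 8 pairs positive and 7 negative. No pair reached r of 0.7, the level counted here as moving together, where 4.61% of all pairs of detected genes and 10.1% of pairs of detected genes on chromosome 11 did. With only 15 pairs, a count of 0 lies near both shares and does not set the members apart. The count was 2 without tumour 4, 1 without tumour 1, tumour 5 or tumour 6, and 3 without tumours 4 and 6, a setting where 7.92% of all pairs of detected genes reached 0.7. In the other direction 1 pair had r of -0.7 or less, against 3.95% of all pairs of detected genes and 1.89% of those on chromosome 11. The median r was 0.01 over all pairs of detected genes and 0.19 over those of chromosome 11. The members' median of 0.16 had a jackknife SE of 0.17 over the tumours. These tumours therefore cannot tell to which of those medians it was nearer. Tumours 2 and 3 had 5 of the 6 members above their own mean, and tumour 7 had 1 of 6.

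Most of the negative values came from Tbx2. Its 5 pairs were all negative, from -0.81 to -0.10, while the 10 pairs without it had a median r of 0.43 and were positive in 8 cases. The exceptions were Nme1 with Brip1, at r = -0.36, and Nme1 with Birc5, at r = -0.08. Setting Tbx2 apart was not planned in advance, and the median without it was not tested. The highest value was that of Birc5 with Brip1, 2 genes that act in dividing and replicating cells, at r = 0.60 and rho = 0.38 (exact permutation p = 0.121, adjusted p = 0.529 over the family of 39 relations, n = 8). It fell to 0.30 without tumours 1 and 4, the pair farthest from the median of Birc5. Ppm1d with Trim37 gave r = 0.57 (exact permutation p = 0.136, adjusted p = 0.529, n = 8), which was 0.79 without tumour 6 and 0.08 without tumours 1 and 7. Ppm1d with Nme1 gave r = 0.53 and with Birc5 r = 0.50, and neither passed the test (adjusted p = 0.529 and 0.531, exact permutation, n = 8). With 8 tumours these tests cannot show that such pairs move independently.

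**Figure D2:**
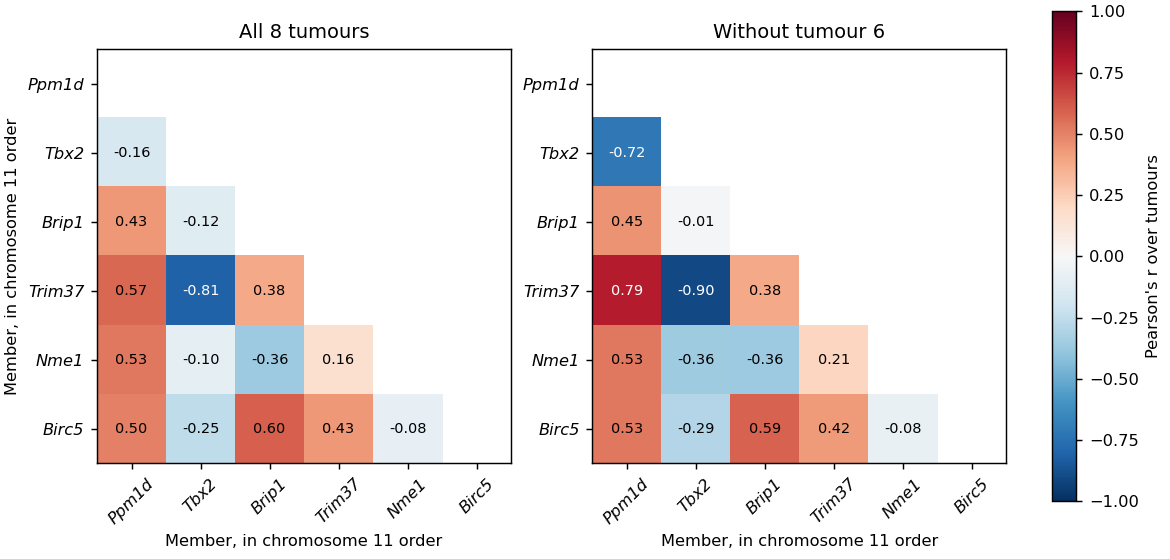
Pearson's r over the tumours for each of the 15 pairs of measured members, with all 8 tumours and without tumour 6; rows and columns follow the order on chromosome 11 and colour gives r from -1 to 1. The Tbx2 values are negative in both panels, Trim37 with Tbx2 being lowest at -0.81 and -0.90, and Ppm1d with Trim37 goes from 0.57 to 0.79.

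Trim37 and Tbx2 ran in opposite directions. Tumour 6 had the highest Trim37 and the lowest Tbx2, tumour 1 the lowest Trim37 and the highest Tbx2, and tumours 2, 7 and 8 lay close to tumour 1 in both. Pearson's r was -0.81 and Spearman's rho -0.90 (exact permutation p = 0.00057 for r and 0.00456 for rho, n = 8). After adjustment over the 39 relations p was 0.0222 for r and 0.178 for rho. Tbx2 also had r of -0.7 or less with 16.0% of the 1019 other detected genes of chromosome 11. The negative r of Trim37 with Tbx2 did not rest on tumour 6, being -0.90 without it (exact permutation p = 0.00675, adjusted p = 0.263, n = 7). It was -0.96 without tumours 3 and 6, the pair farthest from the median of Trim37 (exact permutation p = 0.00278, n = 6). The adjusted p passed 0.05 again, with values of 0.054 to 0.263, when any of tumours 1, 2, 4, 5, 6, 7 or 8 was left out, and stayed below it only without tumour 3. With arrays centred on their medians r was -0.75 (adjusted p = 0.0783, exact permutation, n = 8), and without tumours 4 and 6 it was -0.87 (adjusted p = 0.307, exact permutation, n = 6). The fold range of Trim37 behind this relation was small, 1.53-fold, its SD lying within that of the receptor probe sets, whereas that of Tbx2 was 9.45-fold. Markers of other cells also differed between these tumours. The mean of 4 detected Schwann cell and crest progenitor genes was 2.36 in tumour 4 and 1.81 in tumour 6 and at most -0.10 in the other tumours (log2, centred on each gene's mean), led by Fabp7 at 12.03 and Erbb3 at 9.50 in tumour 4, and the mean of 8 macrophage genes was highest in tumour 3 (0.63) and tumour 6 (0.33) and lowest in tumour 1 (-0.56), as Ctss and Adgre1 were (7.41 and 6.39). The macrophage mean was next highest in tumour 4 (0.18). Macrophage genes and Trim37 were thus both highest in tumours 3, 4 and 6 and lowest in tumour 1. In tumour 7 the macrophage mean was -0.03, while Trim37 was next to lowest. The part of these cells in the relation was not tested.

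Tbx2 correlated with the mean of the adrenergic transcription factors, although not every factor had its low in the same tumour. Of the 11 listed, which set the identity of sympathetic neuroblasts, 8 had a value and 7 were detected, and their mean centred level was 0.29 in tumour 1, 0.49 in tumour 2, 0.18 in tumour 3, -0.15 in tumour 4, 0.01 in tumour 5, -1.57 in tumour 6, 0.34 in tumour 7 and 0.41 in tumour 8. Tumour 6 was lowest and tumour 4 next, as for Tbx2. The correlation with Tbx2 was r = 0.98 and rho = 0.79 (exact permutation p = 0.00206 for r, adjusted p = 0.0401, and p = 0.0279 for rho, adjusted p = 0.516, n = 8). Without tumours 1 and 6 r was 0.92 (exact permutation p = 0.0153, n = 6), and without tumour 6 alone it was 0.82 (exact permutation p = 0.0272, adjusted p = 0.530, n = 7). The adjusted p lay above 0.05, from 0.054 to 0.530, whichever tumour was left out. It was 0.0813 with arrays centred on their medians (exact permutation, n = 8) and 0.487 without tumours 4 and 6 (r = 0.70, exact permutation, n = 6). The factors with the largest SD were Tfap2b, which went from 4.88 in tumour 6 to 11.63 in tumour 8, and Gata2, from 5.45 in tumour 6 to 10.03 in tumour 8. Tumour 6 was thus below its array background for both of these regulators, while Hand2, at 9.94, and Isl1, at 10.36, remained far above it. Tumour 6 had the lowest value for 5 of the 7 detected factors, and the highest for the other 2, Dach1 at 10.46 and Insm1 at 8.80. Dbh, the enzyme that makes noradrenaline, was 5.72 in tumour 6 and between 9.87 and 11.43 in the others. Trim37 gave r = -0.72 with the same factors (exact permutation p = 0.0116, adjusted p = 0.151, n = 8).

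**Figure D3:**
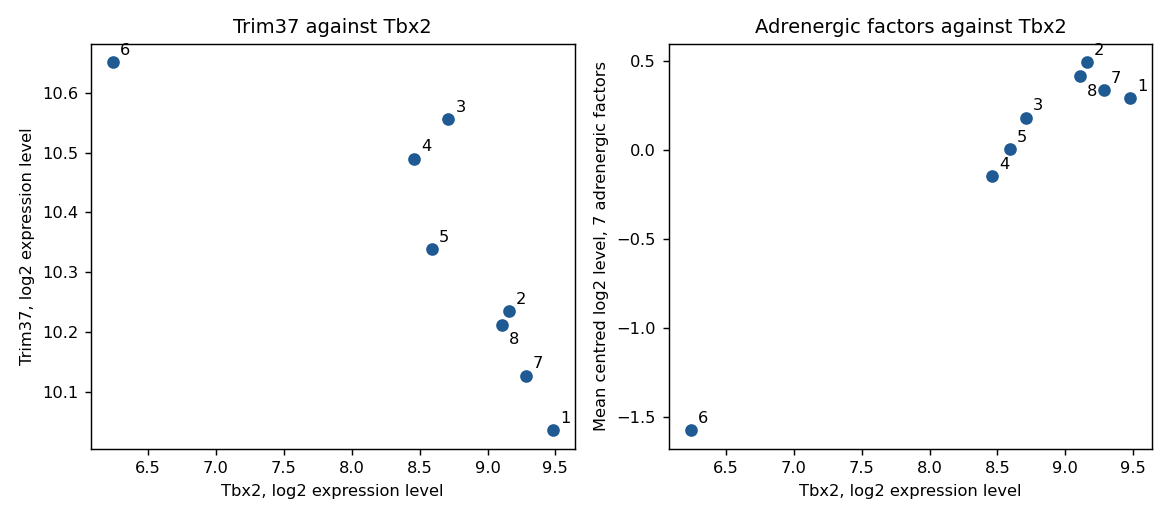
Log2 level of Trim37 (left) and mean centred log2 level of 7 detected adrenergic transcription factors (right) against the log2 level of Tbx2, each point being 1 tumour with its number. Trim37 descends as Tbx2 ascends (r = -0.81) and the adrenergic factors ascend with it (r = 0.98), with tumour 6 far to the left in both panels.

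Other T-box genes had extremes in several tumours. Of 10 listed relatives of Tbx2, 6 were detected, and the largest SDs were those of Tbx20, from 5.51 in tumour 1 to 9.06 in tumour 5, and Tbx1, from 6.30 in tumour 7 to 8.24 in tumour 6. Tbx4, which neighbours Tbx2 in the genome, was lowest in tumour 6 as well, at 6.32, and highest in tumour 2, at 7.45. Over all detected genes, those most like Tbx2 by Pearson's r were Nyap2, Gpr173 and Fam111a, each at r = 0.98 over the 8 tumours.

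Lists for cell division and growth gave no relation with a member that passed the test. For the remaining 3 lists set against each member (mitosis, DNA replication, and ribosome biogenesis with Myc targets), none of these relations passed after adjustment, and 1 had an unadjusted p under 0.05, Tbx2 with ribosome biogenesis at r = -0.80 (exact permutation p = 0.0396, adjusted p = 0.386, n = 8). That value was -0.24 without tumour 6, where the 16 ribosome biogenesis genes had their highest mean, 0.47, and where Rrp9 reached 9.14 and Srm 12.12. Birc5, itself a mitotic gene, gave r = 0.52 with 19 detected mitosis genes (exact permutation p = 0.19, adjusted p = 0.529, n = 8), and Brip1 gave r = 0.60 with them (exact permutation p = 0.116, adjusted p = 0.529, n = 8). The mitosis genes with the largest SD, Cenpf and Bub1b, had their highest values in different tumours, 9.11 in tumour 2 and 9.52 in tumour 6. The DNA replication genes had their lowest mean, -0.25, in tumour 7, where Gins2 was at 8.74 and Mcm5 at 10.09, and where Ppm1d was lowest. Nme1, often described as a Myc target, gave r = 0.37 with the ribosome biogenesis genes (exact permutation p = 0.378, adjusted p = 0.702, n = 8). In all, 39 relations were computed, 4 had an unadjusted p under 0.05 and 2 passed after adjustment.

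The partners of each member give its setting. For Birc5, all 3 listed partners of the chromosomal passenger complex were detected, and their mean was lowest in tumour 4 (-0.25 on the centred log2 scale), the tumour where Birc5 was next to lowest. Incenp ran from 8.41 to 8.99, and Aurkb, the kinase of the complex, from 10.11 in tumour 8 to 10.62 in tumour 3, where Birc5 was highest too. Of 5 other inhibitors of apoptosis 3 were detected, Xiap and Birc2 having the largest SDs, and both were highest in tumour 8, at 8.04 and 7.35. For Nme1, 3 of 4 relatives with a value were detected, and Nme6 was lowest in tumours 7 and 8, at 8.54 and 8.57, as Nme1 was, while Nme7 ran from 7.60 in tumour 1 to 8.17 in tumour 2. For Brip1, 10 of 12 listed Fanconi and homologous recombination genes were detected. Their mean was highest in tumours 3 and 2 (0.21 and 0.16), the same tumours as for Brip1, with Fancm at 9.44 in tumour 3 and Brca1, the protein partner of Brip1, at 8.46 there and 7.68 in tumour 1.

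For Ppm1d, 15 of the 17 p53 pathway genes with a value were detected. The p53 genotype of each tumour is not given, and its part in the levels of these genes was not tested. Perp, a junction protein induced by p53, had the largest SD and ran from 5.63 in tumour 7 to 8.79 in tumour 5. Outside tumour 5 it was at most 6.30, close to background, and it passed as detected only narrowly (limma, adjusted p = 0.0497). Cdkn1a, the cell cycle inhibitor induced by p53, ran from 8.36 in tumour 6 to 10.30 in tumour 4. The list's mean was lowest in tumour 6 (-0.24) and highest in tumour 4 (0.21), which were neither the lowest nor the highest tumours of Ppm1d. For Trim37, all 8 listed centriole duplication genes were detected, and their mean was -0.34 in tumour 4, below every other tumour, where Trim37 was at 10.49. Stil ran from 8.39 in tumour 4 to 9.42 in tumour 2, and Usp28 from 7.60 in tumour 5 to 8.61 in tumour 6. Phb has no value of its own, and the 8 genes listed with it, its partner Phb2 and the mitochondrial proteases, were all detected, with mean centred levels between -0.14 and 0.12. The widest of these were Afg3l1, from 7.89 to 8.68, and Spg7, from 7.70 to 8.32.

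Markers of other cell types lay partly along the levels of some members. Brip1 was above its mean in tumours 2, 3, 6 and 8, and the mean of 5 detected skeletal muscle genes was above 0 in the same 4 tumours (0.16, 0.82, 1.55 and 0.82) and between -0.93 and -0.67 in the others. Of these genes Tnnt3 ranged from 6.44 to 9.44 and Acta1 from 7.03 to 10.43, while Myh4 did not pass as detected. The genes most like Brip1 were Ldb3 (r = 0.97) and Cox6a2 (r = 0.95), both of striated muscle, and Depdc1a (r = 0.94), a mitotic gene. Ldb3 and Cox6a2 lay close to array background, with means of 6.13 and 6.23. Ppm1d was low in tumours 1 and 7, and so was the mean of 7 detected endothelial genes, at -0.64 and -0.43 (Emcn at 7.27 and 7.64, Cdh5 at 7.50 and 7.97). Elsewhere their orders differed. The endothelial mean was highest in tumour 4 (0.73), where Ppm1d was at 9.98. In tumour 2 it was -0.20, with Ppm1d at 10.07. Vwf, the clotting factor of endothelium, was among the 3 genes most like Ppm1d (r = 0.95). Its level was close to array background, from 5.74 to 6.25. The mean of 7 detected fibroblast genes was highest in tumour 3 (0.75) and lowest in tumour 4 (-0.53), with Postn between 8.13 and 10.65 and Dcn between 6.79 and 9.01. Tumour 3 was the highest tumour of Birc5, Ppm1d and Brip1. Trim37 was lowest in tumours 1 and 7, as the endothelial mean was, and highest in tumours 6, 3 and 4. In tumours 6, 3 and 4 the endothelial mean was 0.04, 0.34 and 0.73, and the macrophage mean was 0.33, 0.63 and 0.18. The macrophage mean was -0.56 in tumour 1 and -0.03 in tumour 7. The part of these cells in the members' levels was not tested.

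Over all detected genes, the most alike of the remaining members came from many chromosomes. Birc5 was most like Wfdc17 (r = 0.99) and Map3k3 (r = 0.98), both on chromosome 11, and Cdc26 (r = 0.95), a subunit of the anaphase-promoting complex. Nme1 was most like Ints4 (r = 0.97), Ticam1 and Ap5b1 (both r = 0.96), and Ppm1d, besides Vwf, like Apip (r = 0.96) and 2610524H06Rik (r = 0.95). Trim37 was most like Adamts4 (r = 0.99), Cd302 and Mrpl46 (both r = 0.98). Ticam1, Ap5b1 and Adamts4 lay close to array background, with means of 5.97, 5.77 and 6.10. Of 12715 detected genes, between 7 (for Brip1) and 126 (for Trim37) had r of 0.9 or more with a member, so the genes named are a description.

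Most members had a larger share of partners among the genes of their own chromosome, as most genes of chromosome 11 did. Set against the 1019 other detected genes of chromosome 11 and 11628 detected genes elsewhere, Trim37 had r of 0.7 or more with 25.1% of the former and 10.3% of the latter. Ppm1d had 14.3% and 4.20%, Birc5 11.2% and 3.78%, Nme1 6.67% and 3.84%, and Brip1 2.55% and 1.90%. Tbx2 had it the other way, with 3.14% on chromosome 11 and 7.47% elsewhere, and it had r of -0.7 or less with 16.0% and 8.84%. So 5 of the 6 members rose and fell with a larger share of their own chromosome's genes than of other genes, by a narrow margin for Brip1. The same held for 76.3% of the detected genes of chromosome 11 and, each with its own chromosome, for 69.0% of all detected genes with a chromosome, so the members' count lay near the background. The shares have no test, since genes are not independent replicates and share the same 8 arrays. Brip1 dropped out of these 5 when tumour 1 or tumour 3 was left out, and Nme1 when tumour 8 was.

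**Figure D4:**
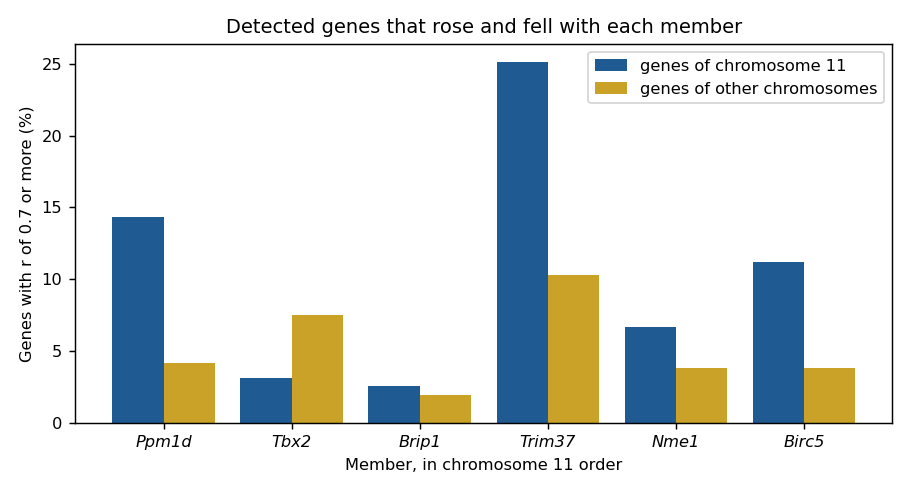
Share of detected genes, in percent, with Pearson's r of 0.7 or more with each measured member, for genes of chromosome 11 (blue) and of all other chromosomes (yellow). The blue bar is the taller one for 5 members, from 2.55% for Brip1 to 25.1% for Trim37, and the shorter one for Tbx2.

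The level of chromosome 11 itself moved by small amounts. The median centred log2 level of its 1025 detected genes was -0.13 in tumour 1, -0.02 in tumour 2, 0.14 in tumour 3, 0.04 in tumour 4, 0.10 in tumour 5, 0.08 in tumour 6, -0.09 in tumour 7 and -0.12 in tumour 8. Tumours 3, 5 and 6 were high and tumours 1, 7 and 8 low, and the SD of these medians was 0.104. It ranked 4 among 20 chromosomes, after chromosomes 13, 12 and 2, the SDs running from 0.021 (chromosome 6) to 0.165 (chromosome 13). RMA equalises the arrays, so the SD of 0.025 for the medians of all detected genes is no gauge for 1 chromosome. The stretch from the first to the last measured member, with 358 detected genes, ran from -0.12 to 0.12, and the 667 genes of chromosome 11 outside it ran from -0.14 to 0.15, with the same tumours at either end (tumours 1 and 3). The stretch thus did not stand out from the rest of the chromosome. Within chromosomes, 4.81% to 14.4% of pairs had r of 0.7 or more on the other 19, with a median of 7.07%, so the 10.1% of chromosome 11 was on the high side but below chromosomes 13 and 12. No DNA copy number was measured in the data used here.

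**Figure D5:**
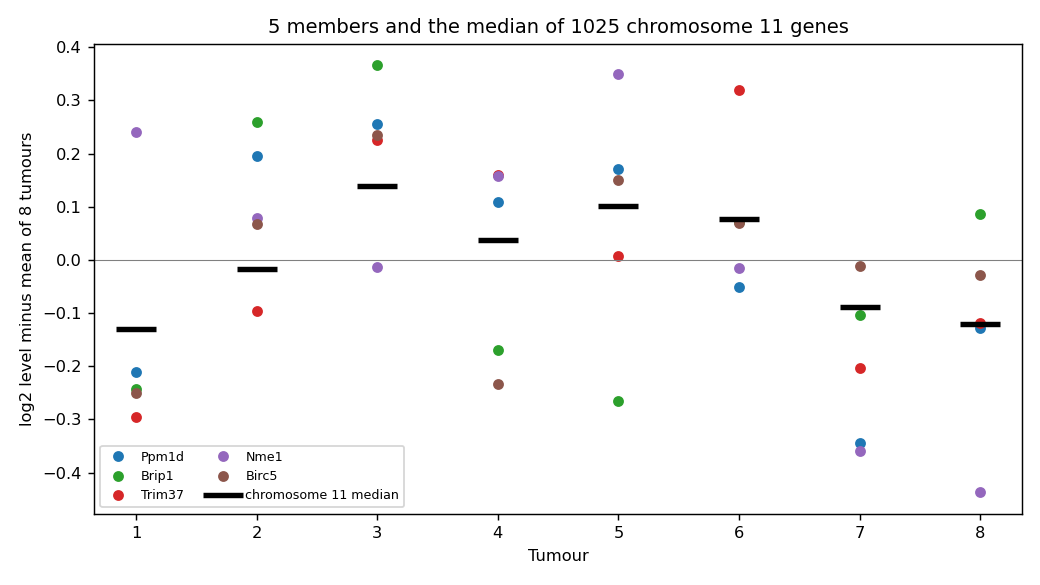
Log2 level of 5 measured members in each tumour minus the gene's mean over the 8 tumours (coloured points), with the median of the 1025 detected genes of chromosome 11 as a black dash; Tbx2 is left out for its wide range. The dashes stay between -0.13 and 0.14, and in tumour 3, where the dash is highest, Nme1 is the only one of the 5 members below 0.

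Further counterparts of human 17q genes moved together about as often as other genes of chromosome 11. Of 39 listed, 34 had a value and 33 were detected, Vmp1 being the exception. The largest SDs were those of Sox9, a neural crest and glial factor, from 5.93 in tumour 8 to 7.74 in tumour 4, and Sstr2, a somatostatin receptor, from 5.80 in tumour 6 to 6.97 in tumour 8. Between the 6 members and these 33 genes, 18 of 198 pairs (9.09%) had r of 0.7 or more, with a median of 0.22, and among the 33 genes themselves 50 of 528 pairs (9.47%) did. Both shares lie near the 10.1% of chromosome 11 as a whole. Trim37 held 9 of the 18 pairs, with Smurf2, Psmc5, Cltc, Rad51c, Spop, Psmd12, Socs3, P4hb and Ints2. Birc5 held 4 of them (Ddx42, Bptf, Tlk2 and Cltc), Ppm1d 2 (Tk1 and Rad51c), Tbx2 2 (Bcas3 and Pcyt2) and Brip1 1 (Ddx42), while Nme1 held none. Cltc, the clathrin heavy chain, ran from 10.32 in tumour 1 to 10.69 in tumour 3, and Bcas3, a neighbour of Tbx2, from 7.43 in tumour 6 to 8.17 in tumour 7. The mean of the list was lowest in tumour 1 (-0.17) and highest in tumour 3 (0.13), the same tumours as for Birc5.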

How the data were processed

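Total RNA of 8 tumours was measured on 1 Affymetrix array each. The authors deposited log2 levels for each probe set, made with RMA and Partek 6.5, per the submitters' processing notes; of other options and the build nothing is said (not given in the sources used here). RMA equalises the arrays' distributions, so a shift shared by most genes is not visible. That the scale is log2 follows from the values. Arrays hold no molecule counts, so their number sets the precision.

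Of 41345 probe sets, 23521 carry 1 gene symbol in the platform annotation, 1814 several and 16010 none, and those with several were not used. Per gene the probe set of highest mean was taken, which gave 22180 genes. Chromosomes came by Entrez identifier from a GRCm38.p6 gene table, which held 21994 genes and lacked 186. Promoters came from RefSeq on the same build.

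Levels minus the array background were tested with limma 3.58.1 in R 4.3.3 (Benjamini-Hochberg over all genes). Correlations over tumours used exact permutation of the 40320 pairings, two-sided, adjusted over 39 relations: 15 pairs of members and 24 of a member with a list mean. The family was planned for all 8 members and is smaller because 2 have no value. Python 3.11.15, numpy 2.4.6, pandas 2.3.3, scipy 1.17.1 and matplotlib 3.10.9 were used. The scripts were tested on simulated data.

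Named are the members, the 3 detected genes most like each by Pearson's r, and the 2 detected genes of largest SD in each list. Other genes, among them Hand2, Isl1, Tbx4 and the 17q genes named as partners, were chosen after their values were seen. The members and the lists, 215 genes of which 196 have a value, were chosen with earlier results of these data known. Alternatives were the mean of all probe sets, quantile normalization again, centring on array medians, Spearman's rho, only members above background, leaving out tumours 4 and 6, and leaving out each tumour. The shares by chromosome, with their background, under these settings were added after seeing the data.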

Additional observations from a re-analysis of the deposited data

Results flagged for a closer look

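Of 25 sets of 8 values tested (the 6 measured members and the 19 list means), 4 had 1 tumour far from the others by Dixon's test at the 95% level, which chance gives in about 1 in 20 sets. Tbx2 was at 6.24 in tumour 6, and the next lowest tumour was 2.22 higher on the log2 scale. The mean centred level of the adrenergic transcription factors was -1.57 in tumour 6, and that of the sympathetic neuroblast genes, which share Hand2 and Isl1 with them, was -1.43 in the same tumour. The mean of the centriole duplication genes was -0.34 in tumour 4. No cause of these values was tested.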

How the results depend on the processing

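All 6 measured members stayed above background under every alternative run. The median r over the members' 15 pairs was 0.16 and lay between 0.00 and 0.29 under the alternatives that kept the tumours or left out tumours 4 and 6, and between 0.03 and 0.21 without each tumour in turn. The count of pairs with r of 0.7 or more was 0, and 3 without tumours 4 and 6; leaving out each tumour in turn gave 0 to 2. In the same settings 7.92% of all gene pairs reached 0.7 without tumours 4 and 6, and 5.75% to 6.31% without each tumour, against 4.61% with all. The count of relations past the threshold was 2, and 0 with arrays centred on their medians, with Spearman's rho, and without tumours 4 and 6; leaving out each tumour in turn gave 0 to 1, the 1 being without tumour 3. Leaving out tumours also leaves fewer permutations and a larger smallest p; for the other settings the cause was not tested. The count of members with a larger share of partners on chromosome 11 was 5, and 4 to 5 without each tumour. Centring on array medians raised the median r of all gene pairs from 0.01 to 0.10. No paired analysis was possible because the tumours form a single group. No value changed its direction past the threshold. With 8 arrays and no repeat of any tumour, array noise at the members' levels was not measured.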
